A study of Mus musculus with 17 samples.

Results

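Egr1, Egr2, Egr3 and Egr4, which encode the early growth response zinc finger transcription factors, were followed together with the activity-induced genes Arc and Npas4 and with Nab1 and Nab2, which encode the corepressors that bind Egr proteins. These 8 genes were taken by symbol from the 36293 genes of the bulk tables and from the 37608 genes listed over all single-nucleus tables, and each of them was listed in both. They were selected on gene family with earlier results of these data in view, among them the values of Egr1 in bulk and in layer 2/3-like nuclei, so Egr1 is described without a test in the comparisons of control with CUS and the FDR values of the others are no independent evidence.

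Male C57BL/6 mice (C57Bl/6J in the study's methods) underwent 12 days of chronic unpredictable stress (CUS), a rodent model of depression in which several different stressors are applied each day, or were handled daily and housed in a separate room as controls. Bulk nuclear RNA-seq was performed on punches of the medial prefrontal cortex (mPFC) of 4 control and 5 CUS mice at postnatal day 90. The labels place collection a day after the last stressor, and the study's methods place that of the mPFC a day after the last behavioral test. sNucDrop-seq, which captures single nuclei in droplets with barcoded beads and counts RNA molecules by unique molecular identifiers (UMIs), was performed on neocortex of 4 control and 4 CUS mice at postnatal day 80. No genotype or drug differed between the groups, and the batch of each mouse is not labelled.

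The bulk libraries held between 26188825 and 30525015 counted reads. The 26114 nuclei kept (1850 to 4274 per mouse) had a median of 1813 to 2480 UMIs per mouse, and any 2 libraries shared at most 9 barcodes. The nuclei fell into 26 classes of more than 200 nuclei, 16 of them named from their markers, after the 8 genes had been taken out of the genes used for clustering. Every pair of replicates differed by more than counting noise, with a chi-square over its degrees of freedom between 2.88 and 24.4 in bulk and between 2.75 and 13.6 in nuclei, and each library was counted as 1 sample.

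In mm10 coordinates, Egr1 (ENSMUSG00000038418) spans chr18:34859823-34864984 on the plus strand, Egr2 (ENSMUSG00000037868) chr10:67535475-67542188 on the plus strand and Egr3 (ENSMUSG00000033730) chr14:70077203-70082614 on the plus strand. Egr4 (ENSMUSG00000071341) spans chr6:85511121-85513589, Arc (ENSMUSG00000022602) chr15:74669083-74672570 and Npas4 (ENSMUSG00000045903) chr19:4984355-4989971, all on the minus strand. Nab1 (ENSMUSG00000002881) spans chr1:52457294-52500679 and Nab2 (ENSMUSG00000025402) chr10:127660918-127668568, both on the minus strand. Nab2 was the only one of the 8 whose interval overlapped other genes of the tables, all on the plus strand: Nemp1 over 1668 bases, Stat6 over 40 bases and the antisense gene Gm16229 over 1646 bases. The bulk kit marked strand, but how the bulk counting treated it is not given in the sources used here, so reads of Nab2 and of these genes may be mixed there. The nuclei were counted on the annotated strand.

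Egr factors belong to the immediate-early genes, which neurons transcribe within minutes of synaptic activity, without new protein synthesis, when calcium and MAP kinase signals act on the DNA-bound factors SRF and CREB. Egr proteins bind GC-rich sites in the promoters of later genes, and Nab proteins, recruited to Egr proteins, repress those promoters through the chromatin remodeling complex NuRD, with Nab2 itself an Egr-induced gene. Arc encodes a protein that promotes the internalization of AMPA receptors at active synapses. Npas4 encodes a neuron-specific transcription factor that responds to depolarization and organizes inhibitory synapses.

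Per kilobase of annotated exon, Arc was the most abundant of the 8 genes in control mPFC, with a mean of 12.5 CPM (read counts scaled to a common library total) per kilobase. Nab1 followed with 10.6, then Egr1 with 4.63, Npas4 with 3.82, Nab2 with 3.67 and Egr3 with 3.21. Egr2 (0.798) and Egr4 (0.522) were the least abundant. Nuclear RNA also holds introns, and per kilobase of the whole gene Nab1, which is 43.4 kb long, dropped to 0.997 CPM while Arc stayed at 11.0.

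The first comparison asked how CUS altered these genes in the mPFC as a whole. Of the 7 genes other than Egr1, 6 had a lower fitted level in CUS mice and 1, Egr4, a higher one, but none of the 7 passed an FDR of 0.05 (edgeR quasi-likelihood test, Benjamini-Hochberg over 18394 genes), beside 3.29% of all genes tested. That share depended on single mice, from 0.714% without control replicate 2 to 8.10% without control replicate 3. Egr2, Arc and Nab1 had an unadjusted p under 0.05, which is 3 of 7, beside 21.5% of all genes tested. The median log2 fold change of the 8 genes, Egr1 included, was -0.19, beside 0.01 over all genes tested. None of the 7 had all CUS mice below all control mice, which 4.70% of the genes tested had.

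Egr2 stood furthest from control. Its level was 3.89, 2.76, 2.02 and 2.17 CPM in the 4 control mice and 1.74, 2.37, 1.45, 1.29 and 1.03 CPM in the 5 CUS mice. Each CUS mouse lay under the mean of the controls, and CUS replicate 2 lay within the control range. The log2 fold change was -0.79 (SE 0.25, 95% interval -1.27 to -0.30, FDR 0.0906). Egr2 passed in edgeR's likelihood ratio test, the test of the study (FDR 0.0369), and in DESeq2 (FDR 0.0342), which called 7.23% and 7.68% of all genes. It also passed when control replicate 3 or CUS replicate 2 was left out (edgeR FDR 0.0460 and 0.0487, with 8.10% and 3.32% of all genes called). Its counts were 30 to 103 reads per mouse.

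Among the other Egr factors, Egr1 was level between the groups. It was measured at 20.3, 22.2, 19.8 and 20.7 CPM in control mice and at 19.0, 19.8, 24.3, 17.5 and 22.3 CPM in CUS mice, so that the control range lay inside the CUS range. The log2 fold change of Egr1 was -0.01 (SE 0.09). Egr3 had 13.4, 13.5, 19.4 and 10.3 CPM in control mice and 12.3, 10.4, 13.0, 12.8 and 14.6 CPM in CUS mice. Its log2 fold change of -0.16 (SE 0.15, FDR 0.578) came to 0.02 when control replicate 3, the highest mouse, was left out. Egr4, the least abundant, lay between 1.02 and 1.23 CPM in control mice and between 1.10 and 1.58 CPM in CUS mice, and 1 of the 5 CUS mice was below the control mean. The log2 fold change of Egr4 was 0.28 (SE 0.17, FDR 0.360).

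Arc, the synaptic effector, was lower on average in CUS mice. The control mice had 36.6, 39.5, 45.0 and 32.2 CPM and the CUS mice 28.1, 31.3, 26.8, 29.5 and 37.1 CPM. Each of the 5 CUS mice lay under the control mean for Arc, and CUS replicate 5, the highest, lay between control replicates 1 and 2. The log2 fold change of Arc was -0.33 (SE 0.10, FDR 0.0986), and DESeq2 gave an FDR of 0.0466. Npas4 spread more widely within each group, with 18.2, 19.0, 14.1 and 11.9 CPM in control mice and 12.1, 15.8, 8.49, 8.75 and 15.7 CPM in CUS mice. The 2 lowest mice of Npas4 were CUS mice, while the other 3 CUS mice lay among the controls. Its log2 fold change was -0.38 (SE 0.20, FDR 0.289). With the replicate number as a block, that of Npas4 was -0.50 (SE 0.09, edgeR FDR 0.0375), where 1.29% of all genes were called. Whether these numbers pair the mice is not known.

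The corepressor genes also had lower means in CUS mice. Nab1 was measured at 45.2, 45.4, 36.3 and 46.2 CPM in control mice and at 33.5, 41.8, 35.6, 39.4 and 35.3 CPM in CUS mice, a log2 fold change of -0.22 (SE 0.08, FDR 0.151). Control replicate 3 lay with the CUS mice for Nab1, and without it the FDR was 0.0234, in the setting that called 8.10% of all genes. Nab2 had 9.33, 11.1, 11.7 and 11.0 CPM in control mice and 9.70, 9.19, 9.66, 9.01 and 11.6 CPM in CUS mice. Its log2 fold change was -0.13 (SE 0.09, FDR 0.444).

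**Figure D1:**
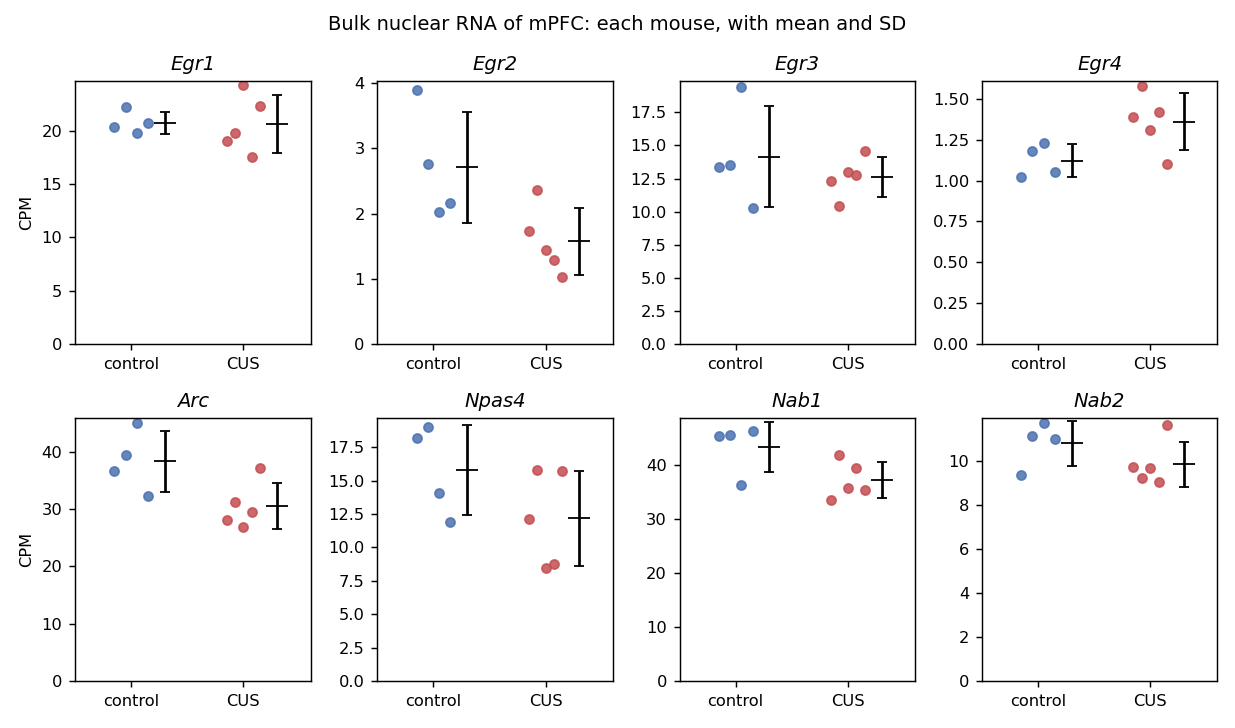
CPM of each gene (vertical axes, from 0) in bulk nuclear RNA of mPFC for 4 control mice (blue points) and 5 CUS mice (red points), with the mean and SD as a black bar at the side. Every pair of groups overlaps, with Egr2 at a mean of 2.71 CPM in control mice and 1.58 CPM in CUS mice.

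Several cell type markers also differed between the bulk groups, and their part in the values above was not tested. Of the marker lists, 2 of 4 markers of newly formed oligodendrocytes, 2 of 3 of Ndst4 excitatory neurons, 1 of 5 of oligodendrocyte precursors and 3 of 6 of astrocytes fell at an FDR of 0.05. So did 1 of 6 markers each of layer 6, Ndnf interneurons and mature oligodendrocytes, 1 of 5 of claustrum and 1 of 4 of choroid plexus. In the other direction, 1 of 6 markers each of excitatory neurons, layer 2/3 and Ndnf interneurons and 1 of 5 of Vip interneurons rose. Of the 9 striatal markers 1 rose, their summed level was 683 to 1181 CPM in control and 1167 to 1409 CPM in CUS mice, and their median log2 fold change was -0.88. The summed level of the 5 oligodendrocyte precursor markers was 401 to 467 CPM in control and 318 to 380 CPM in CUS mice, that of the 4 markers of newly formed oligodendrocytes 60.6 to 88.0 and 51.7 to 58.8 CPM, and that of the 3 markers of Ndst4 excitatory neurons 99.3 to 251 and 63.3 to 83.3 CPM. The 5 Vip interneuron markers summed to 19.0 to 21.8 CPM in control and 23.2 to 25.7 CPM in CUS mice. The 6 astrocyte markers summed to 2063 to 2423 CPM in control and 1890 to 2143 CPM in CUS mice, and the 6 excitatory neuron markers to 1033 to 1349 and 1321 to 1405 CPM. In bulk tissue, fewer cells of a type and less RNA per cell cannot be told apart.

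Other genes of the same rapid transcriptional response were also examined in bulk. Of 25 further rapid primary response genes, all tested, 9 fell and none rose at an FDR of 0.05, and their median log2 fold change was -0.26. Cyr61, a secreted matrix protein, fell by 1.77 on the log2 scale (SE 0.18, FDR 0.00107). The orphan nuclear receptors Nr4a2 and Nr4a3 had log2 fold changes of -1.76 (SE 0.18, FDR 0.00107) and -1.19 (SE 0.19, FDR 0.00954), and Nr4a2 is also a claustrum marker here. Btg2, an antiproliferative factor, had -1.07 (SE 0.21, FDR 0.0198) and the AP-1 subunit Fos -1.05 (SE 0.15, FDR 0.00567). The other 4 were Fosl2, the phosphatase Dusp1, the kinase Sik1 and Arf4, with log2 fold changes of -0.73, -0.60, -0.60 and -0.26. The count ranged from 6 without control replicate 2 to 11 without control replicate 3. The list was chosen with results of these data known and includes genes known to have fallen, so its count is a description. The log2 fold change of Egr2, which did not pass, lay between those of Fos and Fosl2. That of Egr1 was nearest to that of Ier2 (-0.03, SE 0.18).

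**Figure D2:**
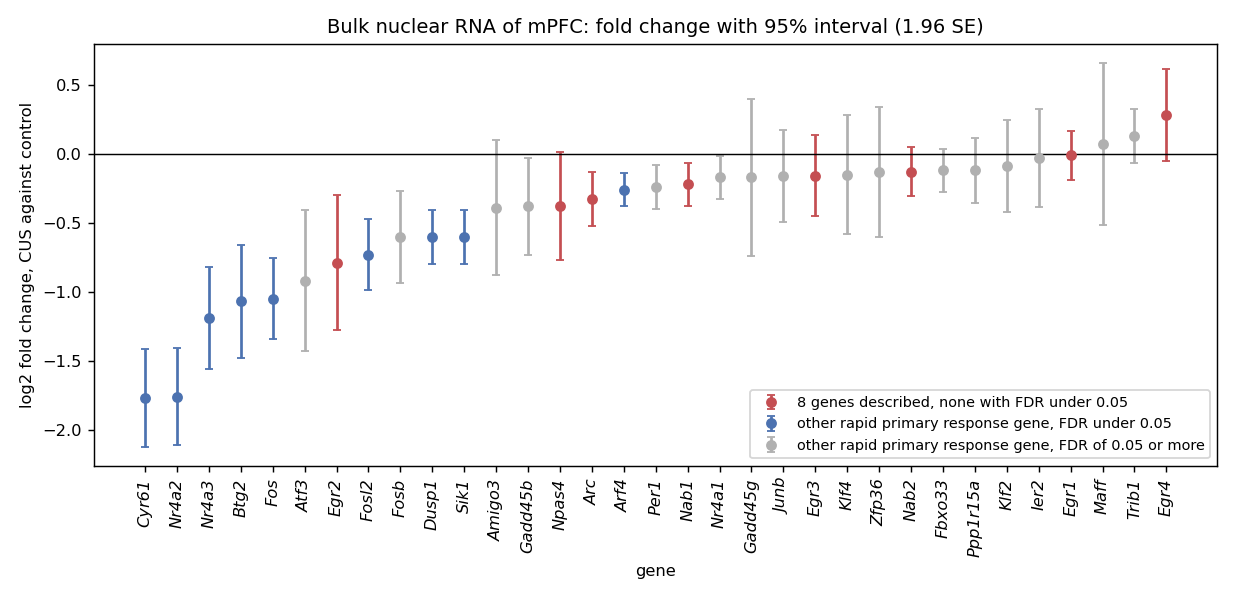
Log2 fold change of CUS against control in bulk mPFC (vertical axis) with 95% intervals for the 8 genes (red) and 25 other rapid primary response genes (blue where the FDR was under 0.05, grey otherwise), ordered by size. Cyr61 at -1.77 is the lowest and Egr4 at 0.28 the highest.

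RefSeq promoter windows were at hand for 5 of the 8 genes, Egr2, Egr4, Nab1, Nab2 and Npas4. Those of Egr2 and Egr4 are shown because these genes lay at opposite ends in bulk, and that of Nab2 because it is the corepressor gene known to be induced by Egr proteins. The windows hold up to 250 bases before the transcription start, 5′ to 3′ on the gene's strand in build GRCm38.p6, with bases inside annotated untranslated regions left out of what is shown. Motifs were searched in all 250 bases, untranslated regions included, and the windows of Nab1 and Npas4 are not shown because they lie mostly or wholly in such regions. Capitals mark matches on either strand to the CArG box (the SRF site) and to TGACG, the core of the CREB site TGACGTCA, which holds it on both strands.
Egr2, chr10:67537619-67537868, plus strand: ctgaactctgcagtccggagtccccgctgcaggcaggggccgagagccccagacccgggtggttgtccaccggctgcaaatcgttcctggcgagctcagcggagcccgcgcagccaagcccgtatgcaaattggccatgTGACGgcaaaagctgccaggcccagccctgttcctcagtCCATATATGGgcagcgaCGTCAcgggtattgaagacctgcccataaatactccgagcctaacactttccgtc
Egr4, chr6:85513590-85513839, minus strand: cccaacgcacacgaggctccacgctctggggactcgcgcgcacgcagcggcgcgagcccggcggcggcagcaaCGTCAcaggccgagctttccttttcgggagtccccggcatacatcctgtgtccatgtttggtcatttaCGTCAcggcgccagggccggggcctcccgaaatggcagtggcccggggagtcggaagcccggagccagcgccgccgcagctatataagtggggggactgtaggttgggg
Nab2, chr10:127666711-127666953, minus strand: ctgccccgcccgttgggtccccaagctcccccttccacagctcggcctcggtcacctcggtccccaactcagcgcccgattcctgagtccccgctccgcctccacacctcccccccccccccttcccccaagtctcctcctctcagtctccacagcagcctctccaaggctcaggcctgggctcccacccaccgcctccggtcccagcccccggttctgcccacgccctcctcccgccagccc
The Egr2 window holds a CArG box starting 72 bases before the start, with TGACG before it and CGTCA after it. It was picked for its motifs from 5 listed Egr2 starts, of which 4 hold a CArG box, and 3 of these windows overlap and share it. A CArG box was present in 1.47% and the core in 17.8% of all 32851 windows of this length, and the full CREB site in 1.55%. The Egr4 window holds the core 2 times and no CArG box, and the 250 bases before the start of Npas4 likewise hold it 2 times. The Nab2 window holds none of the motifs searched, which besides these included the Egr site GCGNGGGCG, where N is any base. That Egr site occurs in 4.70% of all windows, and it matched 3 times in the 250 bases before the start of Nab1, as CGCCCACGC, GCGTGGGCG and GCGGGGGCG. These matches describe letters in a window and not binding.

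The single-nucleus data showed in which classes of nuclei UMIs of the genes were counted, and these can include free RNA. Microglia-like nuclei, for instance, had the excitatory marker Slc17a7 in 19.5% and the inhibitory marker Gad2 in 19.9% of nuclei. The part of free RNA in the levels by class was not tested. In nuclei summed per mouse, levels are given as UPM (UMI counts scaled to the same common total per mouse). Excitatory-like nuclei are the layer 2/3-, 4-, 5-, 5/6- and 6-like and Ndst4 excitatory-like classes, and inhibitory-like nuclei the Pvalb, Sst, Vip and Ndnf classes. Unnamed clusters were left out of both, also those rich in Slc17a7. Of these, the Cpne7/B130024G19Rik cluster had 54.9 UPM of Egr1 and the Galnt14/Col6a1 cluster 155, beside 87.2 in Sst interneuron-like nuclei. Over the 8 mice, all of the 8 genes except Nab1 were higher in excitatory-like than in inhibitory-like cortical nuclei in 8 of 8 mice. The ratio of the means was 7.42 for Arc, 7.18 for Egr2, 6.46 for Egr4, 5.74 for Egr3, 4.16 for Egr1, 3.02 for Npas4 and 2.02 for Nab2. Nab1 was nearly level, with 40.0 ± 5.89 UPM in excitatory-like and 39.5 ± 12.3 UPM in inhibitory-like nuclei (mean ± SD, n = 8 mice), and was higher in excitatory-like nuclei in 5 of 8 mice. The inhibitory-like values of Egr2 and Egr4 rest on 2 and 12 UMIs in all.

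Egr1 was highest in a small cluster led by Nefm and Uqcr11 (349 ± 266 UPM, SD, n = 8 mice), then in layer 6-like (289 ± 91.3), layer 4-like (279 ± 91.6), layer 5/6-like nuclei (208 ± 87.1), a Tshz2/Slc17a6 cluster (201 ± 132) and striatal medium spiny-like nuclei (170 ± 48.7), with layer 2/3-like nuclei at 154 ± 53.5 UPM. It was lowest in Pvalb interneuron-like nuclei (23.2 ± 12.5 UPM). Each step in the order of the 26 classes was smaller than the SD of the higher class. That SD is taken over control and CUS mice together, and the classes come from the same mice. The steps therefore do not show whether neighbours differed. Egr3 had r = 0.78 with Egr1 over the 26 classes and was likewise highest and lowest in the Nefm/Uqcr11 and Pvalb nuclei. It had 182 ± 128 UPM in the Nefm/Uqcr11 cluster, 79.1 ± 21.9 in layer 2/3-like, 75.5 ± 28.7 in striatal medium spiny-like and 74.5 ± 32.9 in layer 5/6-like nuclei, and 50.7 ± 16.9 in layer 4-like nuclei. The Nefm/Uqcr11 cluster held 209 nuclei, from 3 to 66 per mouse, and 30 UMIs of Egr3, and its means vary accordingly. It matched no cell type of the marker lists, and its leading genes included Nefl, Hsp90aa1 and Cox6c. Its median of 1042 UMIs per nucleus was low, and Slc17a7 was detected in 23.0% and Gad2 in 14.4% of its nuclei. What these nuclei are was not tested, so its rank does not place Egr1 or Egr3 in a cell type.

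Arc was highest in layer 6-like nuclei (59.5 ± 26.7 UPM), had 39.0 ± 31.6 in oligodendrocyte-like nuclei on 26 UMIs, and stood at 38.7 ± 20.3 in layer 4-like and 23.0 ± 12.4 in layer 2/3-like nuclei. Npas4 ranged over the layers of excitatory-like nuclei from 40.2 ± 16.8 UPM in layer 5/6-like to 29.2 ± 11.5 in layer 2/3-like nuclei, and had 1 UMI in 1152 astrocyte-like nuclei. Egr4 was highest among named classes in layer 5-like nuclei (25.1 ± 14.3 UPM). Egr2 was the sparsest, with 132 UMIs in all nuclei, 61 of them in layer 2/3-like nuclei (5.64 ± 3.63 UPM). Nab1 was highest in a Foxp2/Pbx3 cluster (105 ± 35.7 UPM) and in layer 5-like nuclei (90.9 ± 23.9 UPM), and was lowest in layer 2/3-like (22.0 ± 6.87) and striatal medium spiny-like nuclei (18.0 ± 8.37). Nab2 had 17.4 ± 6.94 UPM in layer 2/3-like nuclei and was lowest in oligodendrocyte-like nuclei, with 1 UMI.

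**Figure D3:**
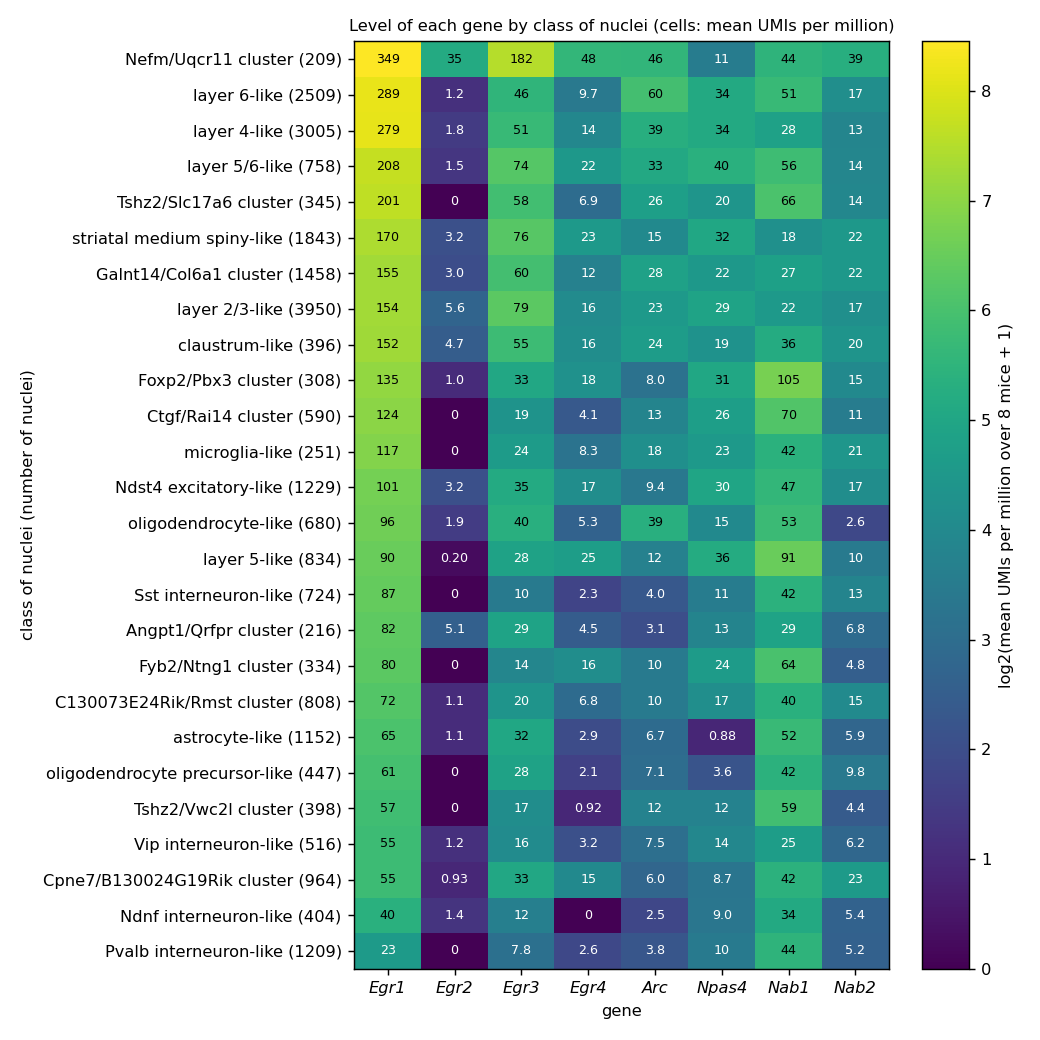
Mean UPM over 8 mice for each gene (columns) in each of 26 classes of nuclei (rows, with the number of nuclei), colored on a log2 scale and ordered by Egr1. Egr1 runs from 349 to 23.2, and Nab1 follows another order, from 105 to 18.0.

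Over the 26 classes, in sums over the control mice, the gene most like Egr1, with the 8 genes themselves left out of the ranking, was Homer1 (Pearson r = 0.83 of log2(UPM + 1)), which encodes a postsynaptic scaffold, followed by Arpp19 (0.80) and St3gal5 (0.79). Egr3 was most like Nrgn (0.92), a calmodulin-binding protein of excitatory neurons, Arpp19 (0.91) and Fgfr1op2 (0.91). Npas4 was most like Dlgap3 (0.93), another postsynaptic scaffold gene, AC161199.1 (0.90) and Gm26848 (0.89). Arc was most like Gm32926 (0.81), Ier5 (0.80) and Arpp19 (0.79), and Egr4 like Camk1d (0.80), Cnksr2 (0.80) and 2010300C02Rik (0.79). Nab1 and Nab2 had no match this close, with Pcca (0.69), Gm42970 (0.68) and Pcnt (0.67) nearest Nab1 and C1qtnf12 (0.75), Gm42456 (0.72) and Skil (0.71) nearest Nab2. For the sparse Egr2 these were Gm2157 (0.80), Gm11893 (0.79) and Gm48695 (0.78). Within the 8 genes, Egr1 and Arc had r = 0.86, above any gene named for either, and Egr1 and Npas4 r = 0.25. The classes share libraries and differ in depth, and these values are descriptions chosen from 15799 genes.

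The second comparison set control against CUS in the nuclei. With all nuclei summed per mouse, Egr1 was measured at 66.8, 99.8, 165 and 144 UPM in control mice and at 204, 179, 168 and 187 UPM in CUS mice. All CUS mice were above all control mice, which 2.47% of 18725 genes with at least 50 UMIs had. The log2 fold change of Egr1, given as a description, was 0.63 (SE 0.21). Control replicate 1 was the lowest mouse for Egr1, Arc, Npas4, Egr2 and Egr4. Egr3 had 37.3, 35.2, 52.6 and 33.7 UPM in control mice and 66.4, 48.6, 55.2 and 54.1 UPM in CUS mice, with CUS replicate 2 below control replicate 3. The log2 fold change of Egr3 was 0.48 (SE 0.15), and its FDR of 0.595 did not pass the 0.2 used for nuclei, which 0.0199% of 5032 genes passed.

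The other 6 genes were below the filter on low counts (UMIs above 10% of the number of nuclei), and only Egr1 and Egr3 of the 8 passed it. Nab2 had 11.9, 11.8, 13.9 and 12.0 UPM in control mice and 22.0, 16.1, 14.0 and 18.1 UPM in CUS mice. All CUS mice were above all control mice for Nab2, although CUS replicate 3 and control replicate 3 were almost level (exact two-sided permutation test over mice, p = 0.0286, the smallest that 4 against 4 mice can give). In the fit without a filter Nab2 did not pass (log2 fold change 0.46, SE 0.18, edgeR FDR 0.462), where 0.664% of all genes passed 0.2. Arc (0.55, SE 0.15, edgeR FDR 0.0990) and Egr3 (0.44, SE 0.13, edgeR FDR 0.145) passed in that fit. SEs were smaller there than with the filter, at 0.13 against 0.15 for Egr3 and 0.12 against 0.21 for Egr1. Arc passed although its groups overlapped and the exact permutation test over mice gave p = 0.229. Whether the unfiltered fit understates the spread between mice was not tested. Leaving out Egr1, 1 of the other 7 genes, Nab2, had non-overlapping groups with CUS higher, beside 2.47% of 18725 genes with at least 50 UMIs. Arc (18.2 ± 12.1 against 27.6 ± 8.41 UPM, exact permutation p = 0.229), Egr4 (11.1 ± 4.92 against 15.2 ± 3.08, p = 0.257) and Egr2 (1.69 ± 1.22 against 3.05 ± 1.24, p = 0.143) had higher means in CUS mice with overlapping groups. Npas4 (25.9 ± 12.5 against 25.2 ± 2.29, p = 1.00) and Nab1 (42.3 ± 2.86 against 40.1 ± 6.35, p = 0.629) had nearly equal means (mean ± SD, n = 4 mice per group, control first, exact two-sided permutation tests).

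Layer 2/3-like nuclei were the largest class, with 3950 nuclei. All 6 layer 2/3 markers were enriched there, and the class had a median of 2537 UMIs per nucleus. Egr1 was at 62.4, 99.6, 141 and 139 UPM in control mice and at 220, 187, 199 and 183 UPM in CUS mice. All CUS mice were above all control mice, which 2.68% of 12392 genes with at least 50 UMIs in these nuclei had. The log2 fold change of Egr1, given as a description, was 0.82 (SE 0.17), ranging from 0.65 without control replicate 1 to 0.97 without control replicate 3. Egr3 was at 52.8, 54.1, 82.3 and 58.2 UPM in control mice and at 106, 81.4, 105 and 92.6 UPM in CUS mice. Egr3 rose at the FDR of 0.2 used for nuclei, with a log2 fold change of 0.61 (SE 0.16, FDR 0.143), as 0.970% of 5465 genes passed in either direction, and control replicate 3 overlapped CUS replicate 2. This call was lost without TMM factors, which correct for library composition (FDR 0.205), and without control replicate 1, 2 or 4 or CUS replicate 1, 3 or 4 (FDR 0.253 to 0.522). The call held in edgeR's likelihood ratio test, the test of the study, here without its batch term (FDR 0.0408, with 170 of 5465 genes called).

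Nab2 was at 12.0, 11.5, 11.8 and 9.71 UPM in control mice and at 28.0, 23.7, 21.6 and 20.9 UPM in CUS mice, a ratio of means of 2.09. The lowest CUS mouse was well above the highest control mouse (exact two-sided permutation p = 0.0286, the smallest possible, with 7 genes examined in this way). These levels rest on 178 UMIs, below the filter, and in the fit without a filter Nab2 had a log2 fold change of 1.00 (SE 0.28, FDR 0.119), and 0.335% of 29261 genes passed 0.2 there. Leaving out Egr1, it was the 1 of 7 genes with CUS above control throughout, beside 2.68% of 12392 genes with at least 50 UMIs in these nuclei. Nab1, the other corepressor gene, had 31.2, 18.8, 22.6 and 29.1 UPM in control mice and 15.2, 11.3, 20.7 and 26.8 UPM in CUS mice, with overlapping groups and a lower CUS mean (exact permutation p = 0.171).

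The remaining genes overlapped between the groups in layer 2/3-like nuclei. Arc had 4.80, 7.29, 32.9 and 26.3 UPM in control mice and 33.6, 23.7, 17.1 and 38.5 UPM in CUS mice (p = 0.257, exact permutation test). The control mice split into 2 low and 2 high values for Arc, and the high ones lay among the CUS mice. Npas4 had 13.2, 26.7, 47.8 and 41.6 UPM in control mice and 22.4, 21.5, 25.2 and 35.3 UPM in CUS mice, a lower CUS mean (p = 0.486, exact permutation test). Egr4 (12.7 ± 5.96 against 18.7 ± 2.09 UPM, n = 4 mice per group, exact permutation p = 0.114) and Egr2 (3.57 ± 3.09 against 7.70 ± 3.15 UPM, exact permutation p = 0.143) had higher means in CUS mice.

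**Figure D4:**
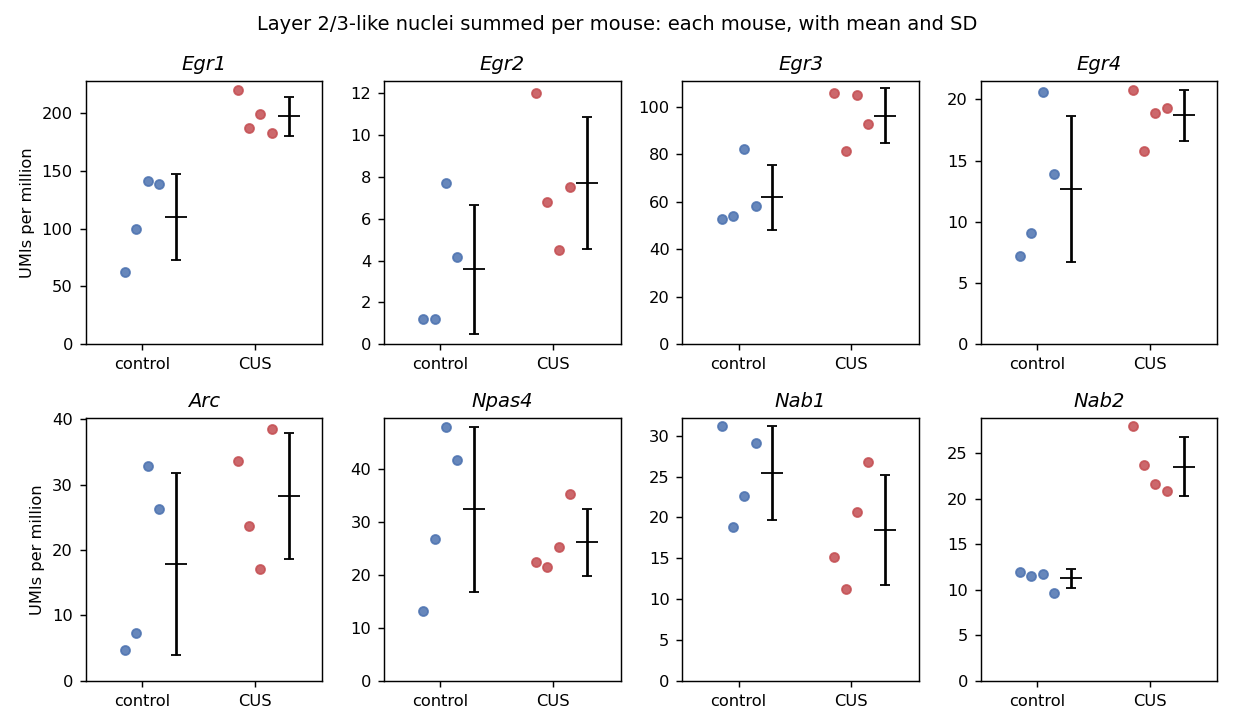
UPM of each gene (vertical axes, from 0) in layer 2/3-like nuclei summed per mouse, for 4 control mice (blue points) and 4 CUS mice (red points), with the mean and SD as a black bar. Egr1 and Nab2 show no overlap between the groups, and Nab2 runs from 9.71 to 12.0 in control and from 20.9 to 28.0 in CUS mice.

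Markers that layer 2/3 neurons should lack were summed in the same nuclei, and the lists differed in outcome. The 4 choroid plexus markers, a measure of free RNA, summed to 2.40 to 8.23 UPM in layer 2/3-like nuclei of control mice and to 14.4 to 28.8 UPM in those of CUS mice. The groups overlapped for the 9 striatal markers (504 to 595 and 567 to 920 UPM), the 6 oligodendrocyte markers (235 to 296 and 165 to 363) and the 6 astrocyte markers (622 to 744 and 578 to 692). They also overlapped for the 6 microglia markers (28.8 to 45.6 and 32.1 to 49.7 UPM) and the 5 endothelial markers (2.57 to 5.55 and 0.900 to 8.01). The 6 layer 2/3 markers summed to 1689 to 1868 UPM in control and 1604 to 1743 UPM in CUS mice. The 6 layer 4 markers summed to 508 to 623 UPM in control and 381 to 495 UPM in CUS mice, without overlap. In layer 2/3-like nuclei, 1 of 6 layer 4 markers, 1 of 7 layer 5/6 markers and 1 of 6 astrocyte markers fell at an FDR of 0.2, and 1 of 6 excitatory neuron markers rose. The part of these differences in the results was not tested.

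The share of layer 2/3-like nuclei with at least 1 UMI showed in how many nuclei each transcript was detected, which depends on depth and free RNA. Egr1 was detected in 10.5, 20.7, 28.4 and 25.2% of nuclei in control mice and in 34.8, 25.5, 29.5 and 30.1% in CUS mice, which overlap. After thinning each nucleus to 1000 UMIs, so that depth was equal (78 of 1893 control and 135 of 2057 CUS nuclei were shallower and left out), the share ran from 4.22 to 11.6% in control mice and from 10.7 to 18.8% in CUS mice, which overlap as well. Thinned nuclei with 2 or more Egr1 UMIs made up 0.528, 0.601, 1.34 and 1.13% in control mice and 4.42, 2.61, 2.22 and 1.87% in CUS mice, without overlap. At the same cut Egr3 had 0.264, 0, 0.446 and 0% in control mice and 0.221, 0.474, 0.247 and 1.09% in CUS mice, which overlap. The cut at 2 or more UMIs was not planned, and its small percentages are of 265 to 672 thinned nuclei per mouse. The share of all genes without overlap at this cut was not computed, and the values of Egr1 are a description. Egr3 was detected in 14.5 ± 3.94% of nuclei in control and 19.0 ± 3.95% in CUS mice (SD, n = 4 mice per group, exact permutation p = 0.143).

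Nab2 was detected in 2.25, 3.29, 3.42 and 2.55% of layer 2/3-like nuclei in control mice and in 7.34, 4.41, 4.52 and 4.87% in CUS mice, without overlap (exact two-sided permutation p = 0.0286, the smallest possible). This share comes from the same 178 UMIs as the level of Nab2 and is no separate evidence. The share of all genes without overlap in detection was not computed. After thinning, Nab2 was detected in 1.34 ± 0.443% and 2.08 ± 0.663% of nuclei, with overlap (n = 4 mice per group, exact permutation p = 0.114), on 63 nuclei. Astrocyte-like nuclei, a measure of the background although glia transcribe some of these genes, had a UMI of Egr1 in 4.77%, of Egr3 in 2.43%, of Nab2 in 0.694%, of Arc in 0.781% and of Npas4 in 0.0868% of nuclei, at median depths of 1290 UMIs in control and 1151 in CUS mice, against 2632 and 2427 in layer 2/3-like nuclei. The shares of Egr2, Egr4, Arc, Npas4 and Nab1 did not pass the test (exact permutation p of 0.143, 0.429, 0.429, 0.371 and 0.143 over 4 against 4 mice).

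In thinned layer 2/3-like nuclei some of the genes were found in the same nuclei more often than their separate shares give. Of 3737 nuclei, 26 held a UMI of both Egr1 and Npas4, where independence gives 13.1, and 15 held both Egr3 and Npas4, where it gives 6.77. Arc and Npas4 were both found in 8 nuclei, where independence gives 2.47, and Egr1 and Egr3 in 35, where it gives 27.4. For the corepressor genes, Nab2 was found with Egr1 in 6 nuclei and independence gives 7.52. These counts are pooled over mice whose levels differ and are descriptive.

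Across the classes, Egr1 passed the filter in 19 of 26 and had a higher fitted level in CUS mice in all 19, with log2 fold changes from 0.08 to 0.91. In 4 of the 26 classes all CUS mice lay above all control mice. The share of all genes was computed for neither count. Several effects were about as large as their SE, as in the Cpne7/B130024G19Rik (0.31, SE 0.32) and Ctgf/Rai14 (0.27, SE 0.26) clusters. In layer 5/6-like nuclei Egr1 had 150 ± 64.6 UPM in control and 265 ± 68.4 in CUS mice (SD, n = 4 mice per group). In layer 4-like nuclei Egr1 had 225 ± 105 UPM in control and 334 ± 22.0 in CUS mice, and in layer 6-like nuclei 229 ± 89.6 and 348 ± 45.2 (SD, n = 4 mice per group). In layer 5-like nuclei the log2 fold change was 0.26 (SE 0.22). These classes come from the same mice and libraries and are not independent.

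Leaving Egr1 out, the other 7 genes gave 20 tests over the classes, 9 each for Egr3 and Nab1 and 1 each for Arc and Npas4. Of the 20, 1 passed the FDR of 0.2, Egr3 in layer 2/3-like nuclei, against 0.107% of all tests of genes in classes. Egr3 had a log2 fold change of 0.56 (SE 0.25, FDR 0.941) in striatal medium spiny-like, 0.58 (SE 0.30, FDR 0.901) in layer 5/6-like and -0.20 (SE 0.42, FDR 0.960) in claustrum-like nuclei. Arc, tested in layer 6-like nuclei alone, had 45.2 ± 29.5 UPM in control and 73.9 ± 15.6 in CUS mice (SD, n = 4 mice per group), with a log2 fold change of 0.67 (SE 0.32, FDR 0.751 in edgeR). Npas4, tested in layer 5-like nuclei alone, had a log2 fold change of -0.02 (SE 0.38). Nab1 ran from -0.36 to 0.26 over its 9 classes.

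Whether the CUS effect differed between excitatory-like and inhibitory-like nuclei of the same mice was estimated for the 2 genes with enough UMIs. For Egr1 the excitatory effect exceeded the inhibitory one by 0.40 on the log2 scale (SE 0.20), given as a description, which came to 0.04 without control replicate 3. For Egr3 the difference was -0.11 (SE 0.39, 95% interval -0.87 to 0.65, FDR 0.986), and 0.0388% of 5153 genes passed the FDR of 0.2. These values do not show that the effects were alike.

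Side by side, the bulk mPFC and the layer 2/3-like nuclei gave opposite signs for Egr1, Egr2, Egr3, Arc and Nab2. From the fit without a filter in layer 2/3-like nuclei, the log2 fold changes were 0.80 (SE 0.15) for Egr1, 0.92 (SE 0.45) for Egr2, 0.58 (SE 0.16) for Egr3, 0.62 (SE 0.24) for Arc and 1.00 (SE 0.28) for Nab2. Bulk gave -0.01 (SE 0.09), -0.79 (SE 0.25), -0.16 (SE 0.15), -0.33 (SE 0.10) and -0.13 (SE 0.09). The bulk intervals of Egr1, Egr3 and Nab2 spanned 0, that of Nab2 from -0.32 to 0.05, and bulk reads of Nab2 may be mixed with those of overlapping genes. Npas4 (-0.34, SE 0.21) and Nab1 (-0.35, SE 0.25) were negative in both, and Egr4 (0.46, SE 0.28) was positive in both. In that fit Egr3 (FDR 0.121) and Nab2 (FDR 0.119) passed 0.2, as 0.335% of all genes did, and none of the bulk values passed 0.05. The bulk direction of Egr1 and Egr3 was not fixed, since it turned when single mice were left out (from -0.08 to 0.04 and from -0.28 to 0.02). The mice, tissue, age and assay differed between the data sets, and by the study's methods the time after stress as well. These cannot be told apart, and the difference was not tested.

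**Figure D5:**
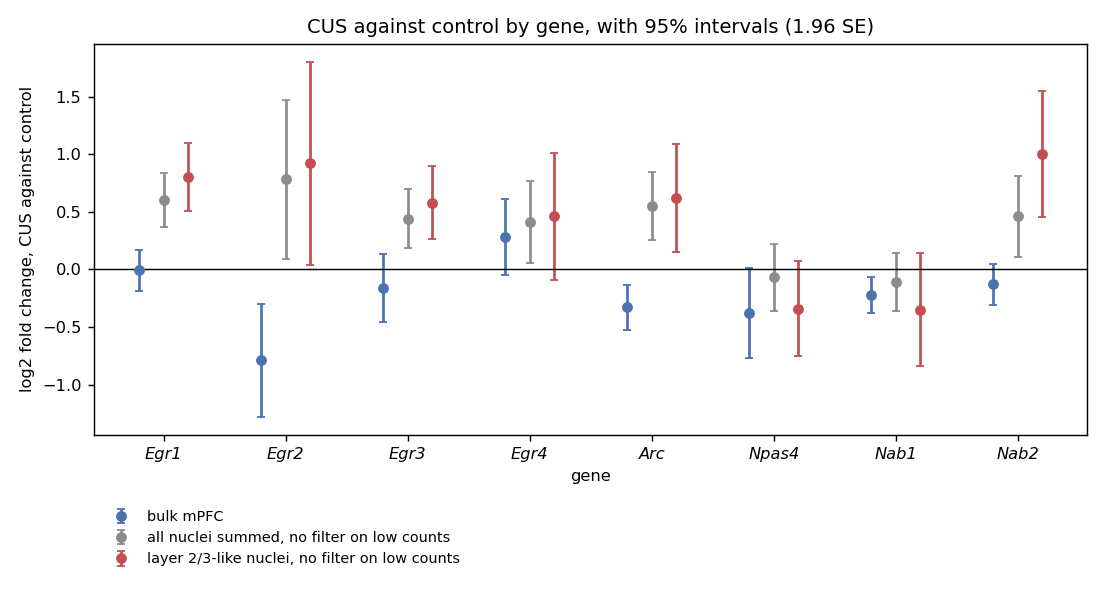
Log2 fold change of CUS against control (vertical axis) with 95% intervals for each gene in bulk mPFC (blue), all nuclei summed (grey) and layer 2/3-like nuclei (red), the nuclei fitted without a filter on low counts. Nab2 stands at -0.13 in bulk, with an interval that spans 0, and at 1.00 in layer 2/3-like nuclei, while Npas4 is below 0 in all 3. Intervals of the unfiltered fit can be narrower than those with the filter.

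The genes around the Egr pathway were followed as lists. None of 15 upstream regulators passed in bulk, where the median log2 fold change was -0.04, and none of the 9 tested passed in all nuclei or in layer 2/3-like nuclei. The largest changes in bulk were those of Elk1, an SRF partner (0.23, SE 0.06, FDR 0.0628), and the kinase Mapk3 (-0.18, SE 0.11, FDR 0.348), and in all nuclei those of Mef2d (0.22, SE 0.09, FDR 0.595) and Mef2a (-0.12, SE 0.09, FDR 0.645). In layer 2/3-like nuclei Mef2d had 0.18 (SE 0.15) and Mef2c -0.12 (SE 0.13). None of 11 NuRD subunits and partners of Nab proteins passed in bulk, with Mbd3 at -0.18 (SE 0.08, FDR 0.242) and Gatad2a at -0.14 (SE 0.06, FDR 0.179), and none of the 6 tested passed in nuclei, where Chd3 had 0.14 (SE 0.14) and Hdac2 0.12 (SE 0.16) in layer 2/3-like nuclei and Rbbp4 0.08 (SE 0.09) and Chd3 0.06 (SE 0.10) in all nuclei.

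Of 12 genes known as Egr targets, 1 rose in bulk and none fell. This was Vgf, a neurosecretory peptide precursor, which went from 16.4 ± 4.26 CPM (SD, n = 4) to 24.7 ± 3.22 CPM (SD, n = 5), a log2 fold change of 0.59 (SE 0.14, edgeR FDR 0.0465). Vgf was also the 1 target of the 6 tested that rose in layer 2/3-like nuclei, from 50.8 ± 7.30 to 82.4 ± 9.55 UPM (n = 4 mice per group), a log2 fold change of 0.73 (SE 0.16, edgeR FDR 0.0514), and earlier results had singled it out there. In all nuclei it had 0.48 (SE 0.12, FDR 0.595).

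Of 21 Arc partners at the synapse, 3 rose in bulk, all glutamate receptor subunits, and none fell, with a list median of 0.10 beside 0.01 over all genes. Grin2a went from 1178 ± 230.0 to 1778 ± 131 CPM (log2 fold change 0.59, SE 0.11, FDR 0.0159), Gria1 from 1213 ± 140.0 to 1583 ± 88.8 CPM (0.38, SE 0.08, FDR 0.0240) and Grin2b from 1640 ± 244 to 2113 ± 54.8 CPM (0.37, SE 0.09, FDR 0.0421). In layer 2/3-like nuclei 1 of 18 tested rose, Baiap2, an actin regulator of dendritic spines (0.43, SE 0.11, FDR 0.143). In nuclei these 3 subunits had log2 fold changes near 0, with Grin2a at -0.04 (SE 0.12) in all nuclei and -0.07 (SE 0.13) in layer 2/3-like nuclei, Gria1 at 0.02 (SE 0.13) and 0.14 (SE 0.13), and Grin2b at 0.05 (SE 0.10) and 0.10 (SE 0.13). In all nuclei none of 18 passed, with the scaffold Dlg4 at 0.32 (SE 0.10, FDR 0.595) and the endocytic dynamin Dnm1 at 0.28 (SE 0.11, FDR 0.595).

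Of 15 partners and known targets of Npas4, 1 rose and 1 fell in bulk. Nrn1, a neurite outgrowth protein, rose from 25.6 ± 2.43 to 32.3 ± 2.90 CPM (log2 fold change 0.34, SE 0.08, FDR 0.0430), and Gem, a small GTPase that inhibits calcium channels, fell from 1.47 ± 0.340 to 0.822 ± 0.169 CPM (-0.85, SE 0.21, FDR 0.0495), with all CUS mice below all control mice. None of the 7 tested in all nuclei or of the 8 in layer 2/3-like nuclei passed. Bdnf, the neurotrophin, had 0.31 (SE 0.16, FDR 0.449) in layer 2/3-like nuclei and 0.19 (SE 0.13) in all nuclei, Arnt, the dimer partner of Npas4, -0.22 (SE 0.13, FDR 0.507) in layer 2/3-like nuclei, and Nrn1 0.20 (SE 0.11) in all nuclei. Of the 25 other rapid primary response genes, 4 could be tested in nuclei and none passed. Nr4a1 had 0.59 (SE 0.16, FDR 0.595) in all nuclei and 0.57 (SE 0.23, FDR 0.371) in layer 2/3-like nuclei, Nr4a2 0.19 (SE 0.12) in all nuclei, and Fbxo33 0.25 (SE 0.17) in layer 2/3-like nuclei.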

How the data were processed

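Gene counts from bulk nuclear RNA-seq and UMI counts per nucleus from sNucDrop-seq were used as the authors deposited them. The bulk counts are reads per gene, mapped uniquely to mm10 with STAR, and the sNucDrop-seq counts include exonic and intronic reads on the annotated strand. Barcodes were kept that had 600 to 5000 genes, less than 5% of UMIs from mitochondrial genes and a doublet score, computed by the steps of Scrublet, of at most 0.2 (26114 of 40000 barcodes, with 5372, or 17.1% of those passing the other filters, removed as doublets), fewer than the study kept. They were clustered in Seurat 5.3.0 (2000 variable genes without the 8 genes, 50 components, resolution 1), and clusters were named where at least 3 of a type's markers were at least 1.5 times higher than in other nuclei and led the cluster, by thresholds chosen with the data at hand. UMIs were summed per mouse and class. Control and CUS were compared with edgeR 4.0.16 (quasi-likelihood test, TMM factors, no covariate) at an FDR of 0.05 in bulk and 0.2 in nuclei, the latter over genes with UMIs above 10% of the nuclei. The study's batch term could not be fitted because the labels give no batch per mouse. Single values were compared by exact permutation over mice, whose smallest p is 0.0286 for 4 against 4 mice. DESeq2 1.42.0, edgeR's likelihood ratio test, which the study used, and other settings were alternatives, and the fits were tested on simulated data. The 95% intervals are 1.96 SE to either side, a normal approximation that is narrower than the model's own test. The labels name replicates but not animals, and the p-values measure the spread between these samples. Bulk libraries held 26188825 to 30525015 reads and nuclei 4533748 to 12769448 UMIs per mouse.

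The members and gene lists were chosen with earlier results of these data known. All 8 members are named in bulk, all nuclei and layer 2/3-like nuclei, elsewhere those with enough UMIs to be fitted, and of each list the genes past the FDR and otherwise the 2 largest changes, of which 1 is not reported here. The genes most like a member are the 3 highest correlations over classes. No p was adjusted over the 8 genes alone. Sequences come from RefSeq.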

Additional observations from a re-analysis of the deposited data

Results flagged for a closer look

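In 3 of the 48 groups of 4 or 5 mice examined, 1 mouse stood apart from the others by Dixon's criterion for gaps at the end of a group's range, where chance gives about 1 in 20. Nab1 in bulk was 36.3 CPM in control replicate 3 and 45.2 to 46.2 CPM in the other control mice. Nab2 in bulk was 11.6 CPM in CUS replicate 5 and 9.01 to 9.70 CPM in the other CUS mice. Nab2 in all nuclei summed was 13.9 UPM (scaled UMI counts) in control replicate 3 and 11.8 to 12.0 in the other control mice, and it still lay below every CUS mouse.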

How the results depend on the processing

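In bulk, none of the 8 genes was called, but 1 (Egr2) was with the likelihood ratio test, 2 (Egr2 and Arc) with DESeq2 and 1 (Npas4, FDR 0.0375) with the replicate block, and leaving out mice gave 0 to 2, the 2 (Egr2 and Nab1) without control replicate 3. All genes called in bulk numbered 606, and 1330, 1413 and 238 under these 3 alternatives. In all nuclei, 0 members were called, but 3 (Egr1, Egr3 and Arc) without the filter on low counts, and 0 to 2 when mice were left out, the 2 without CUS replicate 2, where 14.9% of all genes were called (16.1% in layer 2/3-like nuclei), beside 0.664% without the filter. Over all classes the 2 calls, Egr1 and Egr3 in layer 2/3-like nuclei, were among 39 tests. Leaving Egr1 out, whose values were in view when the genes were chosen, 1 of 20 tests passed, beside 0.107% of all tests of genes in classes. The 2 calls became 1 of 39 without TMM factors, 4 of 199 without the low-count filter and 4 of 39 with the replicate block. When mice were left out they ran from 0 of 42 (without control replicate 2) to 4 of 41 (without CUS replicate 2). No share over all tests is given for these alternatives. Apart from the 1 of 20, these counts include Egr1, which is given as a description. The share of nuclei with a UMI passed for 1 gene and for 0 after thinning. The excitatory against inhibitory difference stayed at 0 calls. The bulk sign turned for Egr1 (range -0.08 to 0.04 over mice left out) and Egr3 (-0.28 to 0.02). The causes were not tested. Between control and CUS mice of the same replicate number, correlations of deviations ran from 0.0334 to 0.23 in bulk and from -0.474 to 0.387 in nuclei. Mice of different numbers were not compared, so these values do not show whether the numbers pair the mice. Of the alternatives other than leaving out mice, 88 results kept direction and side of the threshold, while 8 moved, 6 passed only under the alternative and 2 no longer passed. The count of rapid primary response genes over mice left out was added after seeing the data. Depth limits Egr2, Egr4 and Nab2 in nuclei most, with 132, 741 and 845 UMIs in all.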
